A study of Mus musculus with 6 samples.

Results

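Olfactory receptor genes were read out by bulk RNA-seq in alveolar macrophages, which take up particles and debris in the air spaces of the lung. Members were all rows of the deposited TPM table whose symbol begins with Olfr and a number, and 43 of 17142 rows met this rule. TPM corrects for gene length, so levels can be compared between genes. The depth behind a value is unknown, which leaves no way to give a counting interval. All 6 libraries came from primary alveolar macrophages of allergen-exposed mice after a single challenge, 3 from wild-type and 3 from Trim33 knockout mice. The labels used here name neither the strain, the age, the allergen nor the allele of the knockout, nor whether each library is a different animal, so the error behind each p-value is that between libraries and may be only technical.

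Olfactory receptors are G protein-coupled receptors that bind odorants on olfactory sensory neurons of the nose. Each such neuron expresses one receptor gene out of a very large family that lies in clusters across the genome, and the receptor signals through the G protein subunit encoded by Gnal, the adenylate cyclase encoded by Adcy3 and a cyclic nucleotide-gated channel. Some family members have also been described outside the nose, including Olfr2 and Olfr78 in mouse macrophages. Olfr2 and Olfr78 were not analysed here.

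A single receptor gene, Olfr1033, carried most of the olfactory receptor signal in these macrophages, and it was the only one of the 3 tested that passed. It was present in wild type and rose 8.25-fold in the knockout. Olfr613 and Olfr111, the other members that reached 1 TPM in at least 3 of 6 libraries, did not pass the test. The remaining 40 members were near or at 0 in both genotypes.

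Whether these values belong to the named gene depends on how far near copies can be told apart, so the stretches on which this turns are shown first. The closest relative of Olfr1033 among annotated olfactory receptor genes was Olfr1032, its neighbour in the same cluster, with 95.2% identity over the 930 coding bases before the stop codon and 45 mismatches. Olfr1032 itself was not analysed here. The first pair of lines gives the 120-base coding stretch with the fewest mismatches, from coding base 251 to 370, and the second pair the stretch with the most, from coding base 811 to 930, with 1 and 13 mismatches. Capitals mark the bases at which the pair differs, and all sequences are from the GENCODE M21 transcripts on GRCm38, read 5′ to 3′ on the plus strand.
Olfr1033 (chr2:86041567-86041686): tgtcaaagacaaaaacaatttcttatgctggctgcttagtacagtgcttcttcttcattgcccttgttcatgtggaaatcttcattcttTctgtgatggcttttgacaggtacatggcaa
Olfr1032 (chr2:86008028-86008147): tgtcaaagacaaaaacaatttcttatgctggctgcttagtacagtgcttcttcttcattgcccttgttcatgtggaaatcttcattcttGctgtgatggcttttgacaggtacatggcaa
Olfr1033 (chr2:86042127-86042246): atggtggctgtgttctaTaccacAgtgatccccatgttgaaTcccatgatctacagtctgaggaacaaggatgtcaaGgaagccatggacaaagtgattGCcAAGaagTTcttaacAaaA
Olfr1032 (chr2:86008588-86008707): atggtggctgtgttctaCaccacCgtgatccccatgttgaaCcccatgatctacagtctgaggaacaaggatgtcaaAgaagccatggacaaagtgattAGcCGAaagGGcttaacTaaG
The longest run without a mismatch between the pair was 119 bases. Over the whole longest annotated transcript of Olfr1033, 3973 bases of which most are untranslated, 6.32% of all 50-base stretches also occurred in a transcript of another gene on either strand. The sources used here give neither the read length nor the handling of reads that match several genes, so the share of Olfr1033 signal that could belong to Olfr1032 was not tested.

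Olfr1033 (Entrez gene 258571) spans chr2:86020633-86045171 on the plus strand of GRCm38 and has 5 annotated transcripts, with the coding sequence in 1 exon from 86041317 to 86042246. The TPM is a total over the gene and does not separate coding from untranslated exons. Wild-type replicates 1, 2 and 3 had 83.85, 66.05 and 65.86 TPM. Knockout replicates 1, 2 and 3 had 544.41, 577.8 and 657.55 TPM. Every knockout library lay above every wild-type library, and the lowest knockout value was far above the highest wild-type value. Means were 71.9 ± 10.3 and 593 ± 58.1 TPM for wild type and knockout, respectively (SD, n = 3 each). On the log2(TPM + 1) scale the difference was 3.03 ± 0.11 (SE), with a 95% interval from 2.78 to 3.28 and a limma adjusted p of 1.15e-07 over the 11111 genes tested.

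The two-sided exact permutation test of Olfr1033 gave p = 0.1, and no smaller p is possible with 3 libraries against 3. The log2 difference of Olfr1033 was 2.96 to 3.19 across the 15 alternative settings, and every one of them kept the call. The deposited FPKM values gave 44.31, 32.56 and 34.82 in wild type and 298.57, 310.23 and 354.51 in knockout, an 8.62-fold ratio of means. Ordered by mean TPM over all 17142 rows, Olfr1033 held rank 2113 in wild type and rank 253 in knockout. Its log2 difference was the 9th largest of those tested (rank 9 of 11111).

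**Figure D1:**
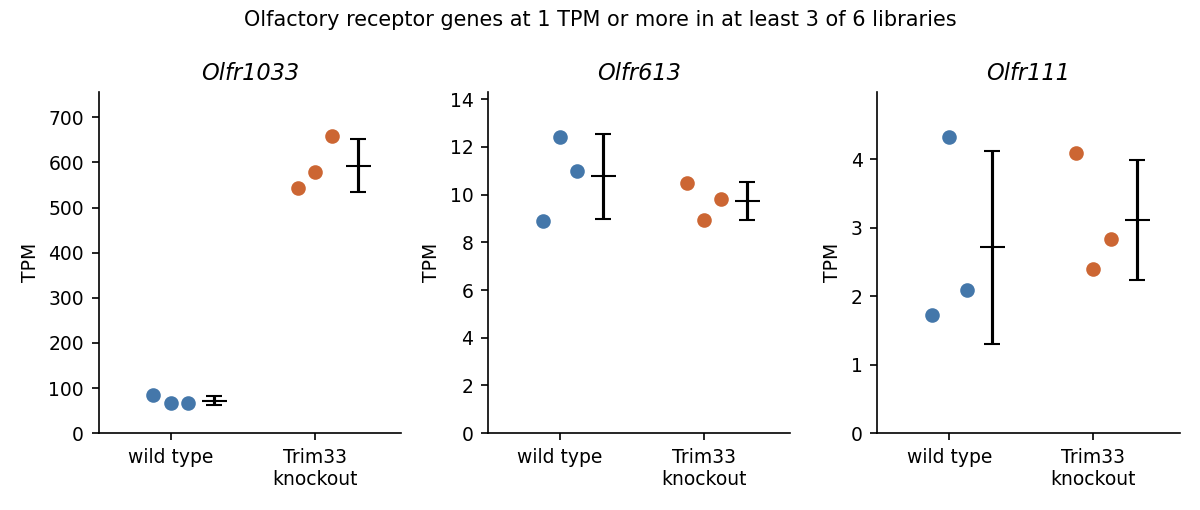
TPM of Olfr1033, Olfr613 and Olfr111 in each library, with wild type and Trim33 knockout on the horizontal axis and TPM from 0 on each vertical axis. Points are libraries, and the bar beside them is the mean with its SD (n = 3). The 3 knockout values of Olfr1033 lie from 544.41 to 657.55 TPM, above all wild-type values, whereas the groups overlap for Olfr613 and Olfr111.

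Olfr1033 made up 86.0%, 75.5% and 79.8% of the summed TPM of all 43 members in the wild-type libraries. Its share was 96.5%, 97.4% and 97.5% in the knockout libraries. The summed TPM of the other members was 13.7, 21.5 and 16.6 in wild type and 19.9, 15.6 and 17.2 in knockout. These sums overlapped between the groups, so the higher family total of the knockout libraries, 564 to 675 against 82.5 to 97.5 TPM, lay in Olfr1033.

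Over all genes tested, 497 were called higher (4.47%) and 1129 lower (10.2%) in the knockout at a limma adjusted p under 0.05, and 1 of the 3 tested members was called higher and 0 lower. Groups that did not overlap, with the knockout above, were found for 9.84% of tested genes and for 1 of the 3 members, and with the knockout below for 34.6% of tested genes and for 0 members. At an unadjusted p under 0.05 no tested member was lower either, with unadjusted p of 0.40 for Olfr613 and 0.48 for Olfr111. Across all tested genes the log2 difference had a median of -0.15, and median-ratio scaling moved it to -0.0025. That scaling turned the split of calls from 30.6% to 63.5% higher (665 higher, 383 lower), and the log2 difference of Olfr1033 under it was 3.19. Without wild-type replicate 1, 2 or 3 the genes called higher numbered 798, 194 or 124 and those called lower 2563, 183 or 80. Without knockout replicate 1, 2 or 3 they numbered 148, 119 or 383 higher and 112, 116 or 536 lower.

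**Figure D2:**
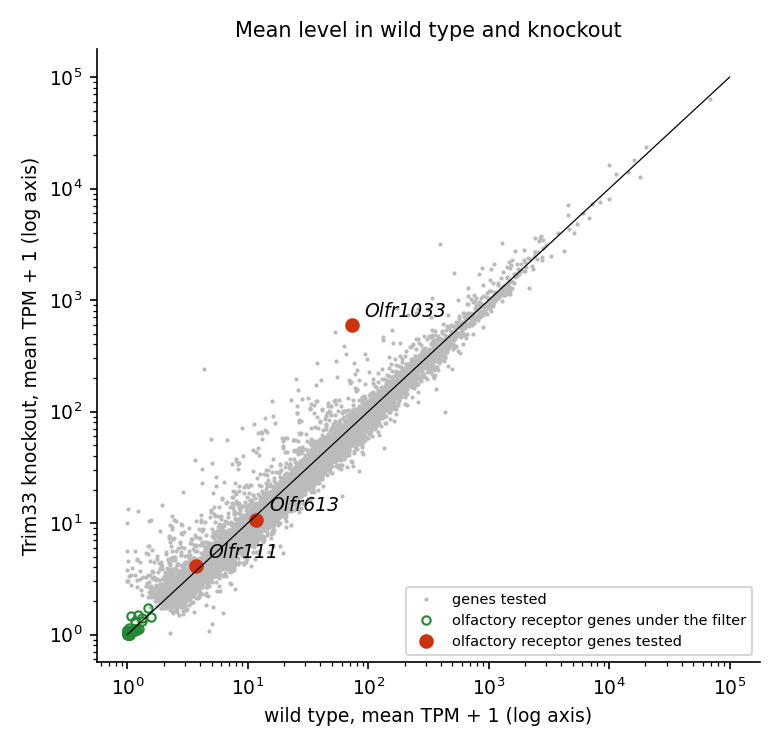
Mean TPM + 1 in wild type (horizontal, log axis) against Trim33 knockout (vertical, log axis). Grey points are the 11111 genes tested, red points the 3 olfactory receptor genes tested and open green circles the 40 under the filter, with the line marking equal levels. Olfr1033 lies far above the line at means of 71.9 and 593 TPM, and Olfr613 and Olfr111 lie on or near it.

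Olfr613 (Entrez gene 259104, chr7:103548074-103555506, plus strand) had the second highest level in the family. Its wild-type values were 8.89, 12.44 and 10.98 TPM, and its knockout values were 10.5, 8.92 and 9.83 TPM. The groups overlapped, with means of 10.8 ± 1.78 and 9.75 ± 0.793 TPM (SD, n = 3 each). The log2 difference was -0.12 ± 0.14 (SE), with a 95% interval from -0.43 to 0.19 and a limma adjusted p of 0.532. Its sign turned to 0.02 after median-ratio scaling and 0.04 after quantile normalization. The closest annotated relative by coding sequence was Olfr616 at only 58.4% identity, and 4.70% of the 50-base stretches of its longest transcript occurred in another gene.

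Olfr111 (Entrez gene 545205, chr17:37508030-37532449, plus strand) was the lowest member above the filter. Its wild-type values were 1.72, 4.33 and 2.09 TPM, and its knockout values were 4.09, 2.4 and 2.83 TPM. The highest value was a wild-type library and the groups overlapped. The log2 difference was 0.19 ± 0.26 (SE), with a 95% interval from -0.39 to 0.77 and a limma adjusted p of 0.61. It was -0.0040 when wild-type replicate 1 was left out and 0.48 when replicate 2 was, so no direction can be given.

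Olfr110, which lies beside Olfr111 at chr17:37492468-37500207, has nearly the same coding sequence. The coding sequences share 98.1% of their bases, with 18 mismatches in 951 bases and a longest identical run of 416 bases. The 120-base stretch with the most mismatches, coding bases 757 to 876, held 7, which are in capitals.
Olfr111 (chr17:37530735-37530854): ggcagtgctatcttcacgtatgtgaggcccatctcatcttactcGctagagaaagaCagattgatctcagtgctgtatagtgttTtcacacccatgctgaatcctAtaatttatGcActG
Olfr110 (chr17:37499409-37499528): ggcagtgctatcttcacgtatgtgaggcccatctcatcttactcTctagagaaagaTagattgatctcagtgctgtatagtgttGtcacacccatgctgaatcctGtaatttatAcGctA
Olfr110 had 0.53, 0 and 0.14 TPM in the wild-type libraries against 1.22, 0 and 0.26 TPM in the knockout libraries, so it was listed at 0 in 1 library of each genotype. The 50-base stretches shared with another gene made up 32.4% of the Olfr110 and 21.1% of the Olfr111 transcript, so how signal was divided between the pair is uncertain. The sum of the pair was 2.25, 4.33 and 2.23 TPM in the wild-type libraries against 5.31, 2.40 and 3.09 TPM in the knockout libraries, and the groups overlapped in the sum as well.

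Just outside the level of 1 TPM in 3 of 6 libraries was Olfr99, which reached 1.01 TPM in wild-type replicate 2 and in knockout replicate 2 and lay between 0.2 and 0.61 TPM in the other libraries. Of the 40 members under the filter, 7 were above 0 in all 6 libraries, 14 in some and 19 in a single library. Olfr920 was the steadiest of them, at 0.52, 0.77 and 0.42 TPM in the wild-type libraries against 0.41, 0.47 and 0.42 TPM in the knockout libraries. Olfr115, Olfr976, Olfr433, Olfr1417, Olfr287 and Olfr1383 had means over the 6 libraries from 0.152 to 0.357 TPM. No member was above 0 in all libraries of one genotype and at 0 in all of the other.

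The number of members listed above 0 per library did not separate the genotypes, at 20, 23 and 21 in wild type and 22, 19 and 25 in knockout. Of the 240 values of members under the filter, 128 were 0 and 112 were above 0, with 55 of the latter in wild-type and 57 in knockout libraries. Of those 112 values, 32 lay between 0.08 and 0.12 TPM, and the highest was 1.22 TPM. The knockout mean was above the wild-type mean for 20 of the 40 members, below it for 19 and equal for 1. Counting thresholds changed the family size seen, from 3 members at 1 TPM or more in at least 3 libraries to 18 at 0.1 TPM and 21 above 0.

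**Figure D3:**
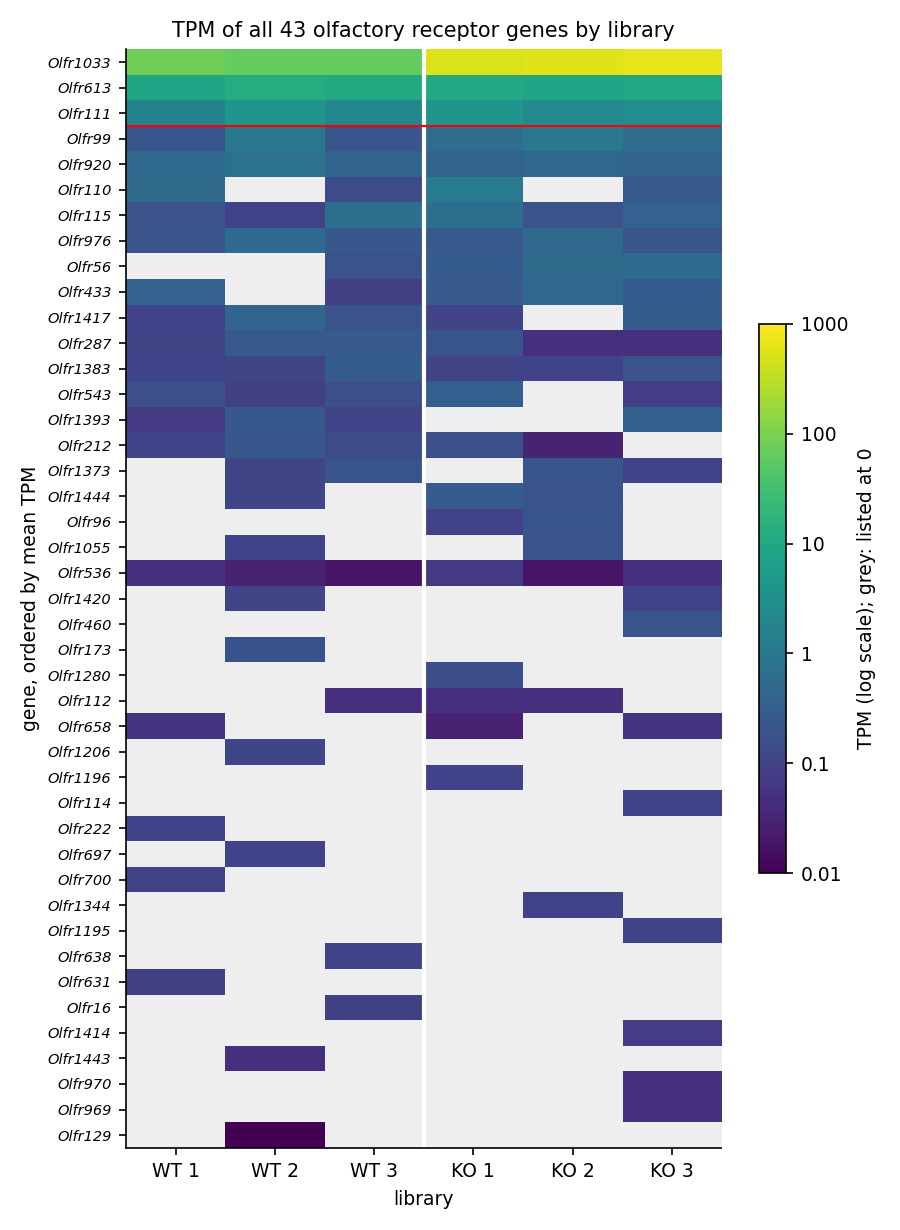
TPM of all 43 olfactory receptor genes (rows, ordered by mean TPM) in each library (columns, WT wild type and KO Trim33 knockout), with colour on a log scale and grey for a value of 0. The red line separates the 3 members at 1 TPM or more in at least 3 of 6 libraries from the other 40. The top row, Olfr1033, differs between the genotypes, and the lower rows are mostly grey in both.

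Olfr56 was the single member under the filter whose groups did not overlap, with the knockout above. It had 0, 0 and 0.19 TPM in the wild-type libraries against 0.28, 0.53 and 0.57 TPM in the knockout libraries. Of the 6031 genes under the filter, 4.24% had all knockout values above all wild-type values, so 1 of 40 members is no more than that share. The opposite order held for 5.02% of those genes and for 0 members. The annotated span of Olfr56, chr11:48978889-49135387 on the plus strand, overlaps 6 other genes of the table, 1 of them on the same strand. That gene is Ifi47, which encodes an interferon-inducible GTPase and had 29.5, 10.47 and 14.28 TPM in the wild-type libraries against 72.87, 59.63 and 39.19 TPM in the knockout libraries. All knockout values of Ifi47 lay above the wild-type values, as they did for 9.84% of tested genes. It did not pass (log2 difference 1.69 ± 0.44 (SE), limma adjusted p 0.0619). Ifi47 also shared the most 50-base stretches with the Olfr56 transcript, 2.69% of which occurred in another gene, and its part in the Olfr56 values was not tested.

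The family is annotated with 1110 protein-coding genes in RefSeq on GRCm38.p6, so the 43 members, all protein coding, make up 3.87% of it. They lay on 10 chromosomes, with 9 on chromosome 7, 8 on chromosome 17 and 6 on chromosome 2. The 3 tested members lay on those 3 chromosomes and were not close relatives of each other. Coding identity was 50.5% between Olfr1033 and Olfr613, 56.5% between Olfr1033 and Olfr111, and 51.9% between Olfr613 and Olfr111.

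Olfr1033 stood alone in its surroundings. Within 200 kb on either side, 34 genes were annotated, 31 of them olfactory receptor genes, and none had a row in the table. The nearest tested gene at lower coordinates was Tnks1bp1, 0.95 Mb away, with means of 7.92 ± 1.34 and 7.10 ± 0.324 TPM in wild type and knockout (SD, n = 3 each). The nearest at higher coordinates was Ptprj, 4.38 Mb away, which encodes a receptor tyrosine phosphatase and had 14.8 ± 1.96 and 15.8 ± 0.992 TPM. Neither passed, with limma adjusted p of 0.508 and 0.587. The stretch of 5.36 Mb between these genes held 287 annotated olfactory receptor genes. Of these, 5 had a row in the table, Olfr1033 itself among them.

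Of 49 other tested genes within 6 Mb of Olfr1033, 2 were called higher and 3 lower, against 4.47% and 10.2% of all tested genes. The higher ones were Ube2l6, which encodes a conjugating enzyme of the ubiquitin-like protein ISG15, from 99.5 to 227 TPM, and Mdk, which encodes the growth factor midkine, from 1.23 to 2.61 TPM. The lower ones were Calcrl, Lrp4 and Ckap5, with log2 differences of -0.68, -0.50 and -0.42. The median log2 difference of these 49 genes was -0.08, close to the -0.15 of all tested genes. Their lowest was -0.68 and their highest 1.19.

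**Figure D4:**
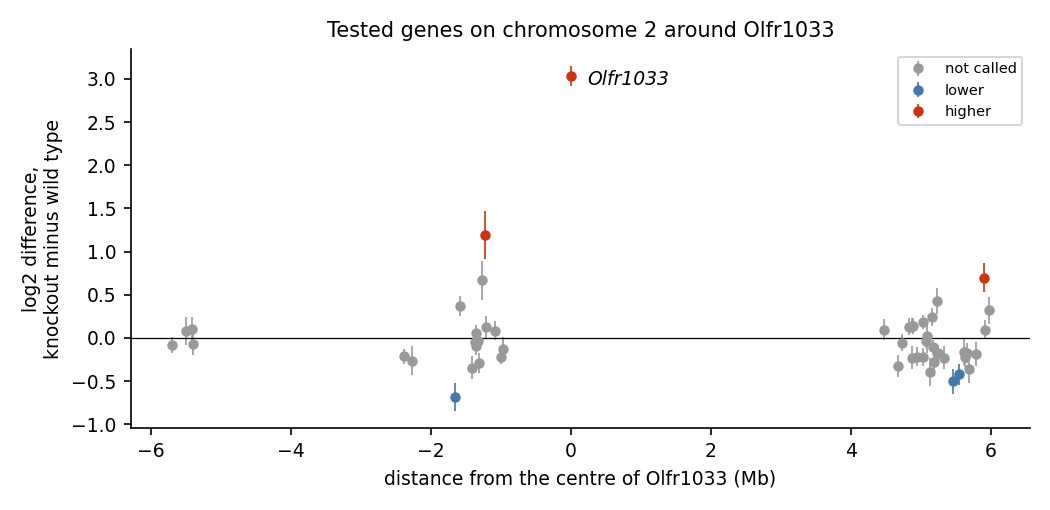
Log2 difference (knockout minus wild type, on log2(TPM + 1), with SE) of tested genes on chromosome 2 by distance from the centre of Olfr1033 in Mb. Colours mark genes called higher, called lower or not called at an adjusted p under 0.05. Olfr1033 is at 3.03, and no other tested gene within 6 Mb exceeds 1.19.

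Around Olfr613 no other gene within 200 kb had a row in the table. Olfr111 had 5 such neighbours, the olfactory receptor genes Olfr110, Olfr112, Olfr114 and Olfr115 and the nonclassical MHC class I gene H2-M2. H2-M2 had 42.93, 21.96 and 16.46 TPM in the wild-type libraries against 251.39, 67.63 and 67.09 TPM in the knockout libraries. All knockout values of H2-M2 lay above the wild-type values, as they did for 9.84% of tested genes, but it did not pass (log2 difference 2.02 ± 0.70 (SE), limma adjusted p 0.113).

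The genes that relay an odorant signal in the nose were present only in part. Of 19 genes on a list of olfactory signal transduction, 17 had a row and 7 were tested, with 0 called higher, 1 lower and 6 not called, where 4.47% of all tested genes were called higher and 10.2% lower. A single lower call among 7 genes is near that share. The adenylate cyclase gene Adcy3 had means of 100.6 ± 6.19 and 103.3 ± 1.26 TPM in wild type and knockout (SD, n = 3 each) and did not pass (limma adjusted p 0.734). Gnal, which encodes the olfactory G protein subunit, lay between 0.25 and 0.56 TPM in all libraries. Ric8b, a chaperone and exchange factor for that subunit, was at 6.43 and 5.39 TPM. Grk3, a kinase that desensitizes odorant receptors, fell from 20.9 ± 3.20 to 15.1 ± 0.448 TPM, and the log2 difference was -0.43 ± 0.12 (SE, limma adjusted p 0.0438).

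Markers of olfactory sensory neurons were near 0. Of 10 such markers 7 had a row, their summed TPM was 0.59 to 1.04 in wild type and 0.53 to 1.29 in knockout, and the highest single value was 0.73 TPM. Omp, the olfactory marker protein gene, was at 0 in 5 libraries and at 0.09 TPM in wild-type replicate 3. The 5 markers of tuft or brush cells with a row summed to at most 0.35 TPM. Alveolar macrophage markers summed to 27337 to 28822 TPM in wild type and 19153 to 22100 TPM in knockout, with 5 of 10 called lower beside 10.2% of all tested genes. These sums mainly follow Chil3, with means of 18104 and 12585 TPM, and Ear2, with means of 4256.5 and 2737 TPM in wild type and knockout. Itgax averaged 1117 and 1171 TPM and was not called. Not every macrophage marker was lower, since Car4 averaged 1481 TPM in the wild-type and 2193 TPM in the knockout libraries (limma adjusted p 0.075, not called). The 4 alveolar type 2 cell markers summed to 62.3 to 104.6 and 27.1 to 64.8 TPM, and neither of the 2 that were tested was called. Club and ciliated cell markers summed to 97.1 to 130 TPM in wild type and 70.6 to 159 TPM in knockout. Neutrophil markers summed to 158 to 167 and 153 to 175 TPM. In each of these lists 3 markers were tested and 0 called. The neutrophil sum hides members that differ in direction. S100a8 averaged 108 and 128 TPM, S100a9 5.02 and 8.52 TPM and Mmp8 49.4 and 26.9 TPM in wild type and knockout. Every knockout value of S100a8 lay above every wild-type value, as for 9.84% of tested genes. T cell, B cell and eosinophil markers each summed to at most 3.47 TPM in any library. The part of these markers in the Olfr1033 difference was not tested. In bulk samples, fewer cells of a type and less RNA per cell cannot be told apart.

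Of 11 genes on a list of olfactory receptor trafficking, 10 had a row and 6 were tested. Of these, 0 were called higher, 1 lower and 5 not called, again near the 4.47% higher and 10.2% lower of all tested genes. Rtp1, the main chaperone of odorant receptors, was at 0.03 TPM in wild-type replicate 2 and at 0 in the other libraries. Rtp4, an interferon-inducible chaperone of the same family, had 103.96, 30.91 and 71.9 TPM in the wild-type libraries against 208.72, 189.96 and 143.03 TPM in the knockout libraries. These groups did not overlap, and Rtp4 did not pass (limma adjusted p 0.102). In this list 1 gene, Rtp4, had every knockout value above every wild-type value, and 3 had the opposite order. Those orders held for 9.84% and 34.6% of all tested genes. Reep3, listed by its family name and not by a known part in receptor transport, fell from 57.4 ± 7.37 to 41.8 ± 3.29 TPM (limma adjusted p 0.0288, n = 3 each).

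Of 23 genes that control which olfactory receptor gene a sensory neuron expresses, 22 had a row and 17 were tested, with 1 higher, 4 lower and 12 not called, beside 4.47% higher and 10.2% lower of all tested genes. The higher one was Kdm1a, which encodes the histone demethylase LSD1. It had 23.78, 25.28 and 23.73 TPM in the wild-type libraries against 201.14, 191.66 and 191.27 TPM in the knockout libraries, a log2 difference of 2.95 ± 0.08 (SE, limma adjusted p 1.20e-08). Side by side, the ratio of mean TPM was 8.02 for Kdm1a and 8.25 for Olfr1033, and whether the changes are related was not tested. The homeobox gene Lhx2, which binds olfactory receptor enhancers, had 1.24 ± 0.491 and 2.56 ± 1.06 TPM and did not pass (limma adjusted p 0.101), and its partner Ldb1 had 56.9 and 47.2 TPM.

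The lower members of that list were Atf5, Lbr, Ctcf and Rad21. Atf5, a transcription factor of the unfolded protein response that follows receptor expression in sensory neurons, fell from 47.5 ± 7.01 to 28.2 ± 1.33 TPM (limma adjusted p 0.00665, n = 3 each). Lbr, the lamin B receptor, fell from 9.33 to 5.85 TPM. Ctcf and the cohesin subunit gene Rad21, which shape chromatin loops, fell from 45.7 to 34.1 and from 107.5 to 80.3 TPM. The median log2 difference was -0.22, -0.17 and -0.31 in the signalling, trafficking and gene choice lists, against -0.15 over all tested genes.

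The lower calls in these 3 lists together numbered 6, and all but that of Atf5 were lost under another scaling or without single libraries. They numbered 2 after median-ratio scaling, when Atf5 and Lbr passed. They numbered 14 without wild-type replicate 1, where 2563 of all 11043 genes tested were called lower. Without knockout replicate 3 they numbered 3, beside 536 of 10995 genes. When any of the other 4 libraries was left out, 1 remained, Atf5. Kdm1a was called higher and Atf5 lower under all 15 alternatives.

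**Figure D5:**
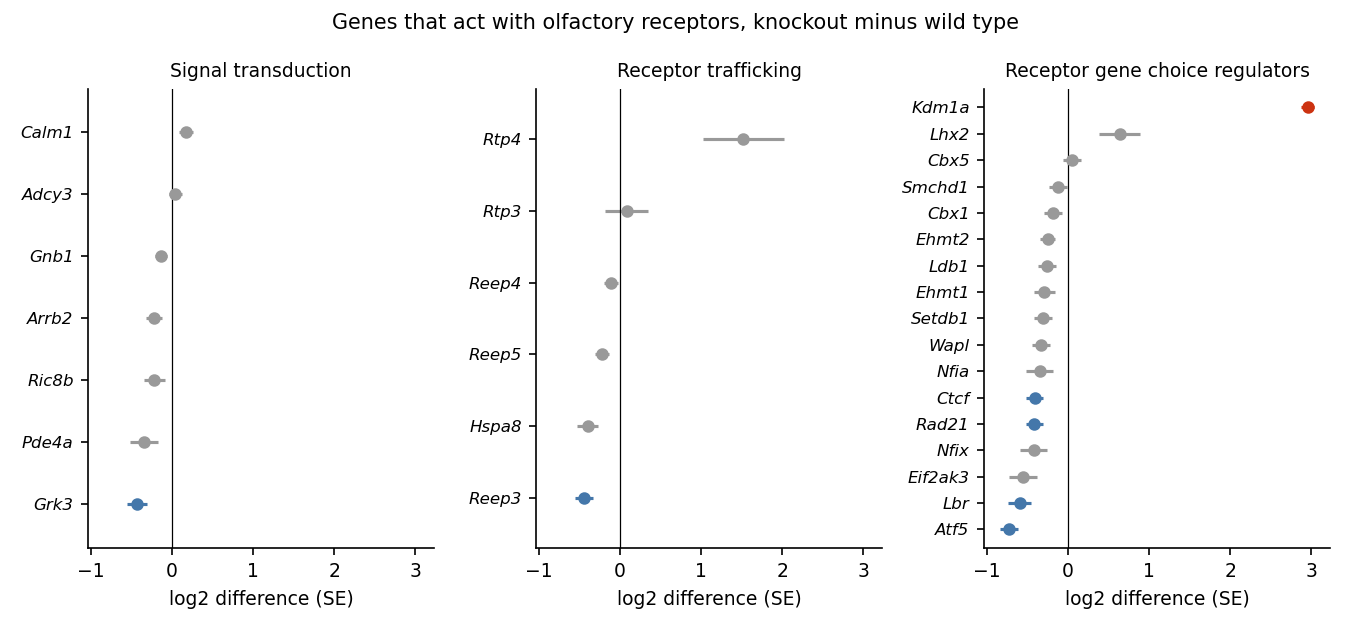
Log2 difference (knockout minus wild type, on log2(TPM + 1)) of tested genes in the lists of olfactory signal transduction, receptor trafficking and receptor gene choice, with SE as horizontal bars. Red marks a gene called higher, blue called lower and grey not called. Kdm1a stands at 2.95, and Grk3, Reep3, Ctcf, Rad21, Lbr and Atf5, the other genes called, lie below 0.

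Trim33, the targeted gene, was lower in all 3 libraries labelled knockout than in any wild-type library. Its wild-type values were 6.83, 10.97 and 6.86 TPM, and its knockout values were 2.63, 3.34 and 3.98 TPM, a log2 difference of -1.08 ± 0.19 (SE, limma adjusted p 0.0114). The 6 libraries held 15182 to 15535 genes above 0.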

How the data were processed

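Total RNA of primary alveolar macrophages was extracted with TRIzol and made into libraries with an MGI kit, per the labels' protocols. Per the submitters' processing notes the build was GRCm38.p6 and the tools included Bowtie2 2.2.5 and HISAT2 2.0.4, with no roles. The program that quantified genes, its annotation and its strand setting were not given in the sources used here. Deposited by the authors were TPM and FPKM values per gene, both length-scaled estimates with 2 decimals, per the file headers. Counts were not used here, and the depth behind TPM is unknown.

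Testing covered genes that reached 1 TPM in 3 or more of 6 libraries. Knockout minus wild type was fitted on log2(TPM + 1), a scale that understates changes of low genes, by limma 3.58.1 under R 4.3.3 with trend and robust moderation and Benjamini-Hochberg adjustment over the 11111 genes tested. Exact permutation tests used SciPy 1.17.1. Intervals are 95%. All 43 members matched RefSeq by Entrez ID and GENCODE M21 by symbol, and both annotate GRCm38. Gene spans are those of GENCODE. Coding sequences were aligned end to end with Biopython 1.88. The table of promoter sequences was not used.

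The members, lists and rules were chosen with earlier results of these data known. Named were members past the filter, the 10 highest others, genes of the table within 200 kb and list members. Tnks1bp1, Ptprj, Ube2l6, Mdk, Calcrl, Lrp4, Ckap5 and Ifi47 were named after their values were seen. The sample titles do not say whether replicate numbers pair the libraries, and the main fit did not treat them as pairs. No 2 libraries were duplicates, since at most 0.369% of tested genes had identical values in any pair. Alternatives were the FPKM table, quantile normalization, median-ratio scaling, plain moderation, pseudocounts of 0.1 and 5, a filter at 5 TPM and none, a replicate block and leaving out each library.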

Additional observations from a re-analysis of the deposited data

How the results depend on the processing

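Olfr1033 and Trim33 kept their direction and their calls under all 15 alternatives, and no tested olfactory receptor gene was called lower under any. With no filter 43 members were tested and 1 was called higher, beside 348 of all 17142 genes. The log2 difference of Olfr613 turned to 0.0237 after median-ratio scaling and 0.0407 after quantile normalization. That of Olfr111 ranged from -0.0040 to 0.481 with 1 library left out, and none of these was called. The replicate number as a block gave 753 genes higher and 2147 lower, and 2 higher and 11 lower in the chemosensory lists, and it changed no call of a member. Same-numbered libraries deviated with correlations of 0.323, -0.0325 and 0.0854, which cannot settle pairing with 3 libraries per group. The main fit did not take the numbers as pairs. Genes called lower numbered 324 of 17142 with no filter. Of 11111 genes they numbered 383 after median-ratio scaling, 589 after quantile normalization and 672 with plain moderation. List members called higher were 2 with no filter and 2 with plain moderation, beside 348 of 17142 and 469 of 11111 genes. Those called lower were 1 with no filter, 2 after median-ratio scaling and 2 with plain moderation. With 1 library left out, genes called higher ranged from 119 to 798 and lower from 80 to 2563, and list members called higher from 1 to 4 and lower from 1 to 14. The largest of each came without wild-type replicate 1, where 11043 genes were tested. These counts describe each setting, and the cause of the shifts was not tested. Depth is unknown, so members listed at 0 cannot be called absent.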

Other observations

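Other chemoreceptor families of the table resembled the olfactory receptor genes in having few members above the filter. Of 4 vomeronasal type 1 receptor genes, 1 was tested, Vmn1r58, with 12.17, 16.17 and 12.96 TPM in the wild-type libraries against 14.53, 12.29 and 10.35 TPM in the knockout libraries. These groups overlapped and the gene did not pass (log2 difference -0.14 ± 0.15 (SE), limma adjusted p 0.492). None of 22 vomeronasal type 2 receptor genes and none of 3 taste receptor genes reached the filter. Vmn2r3, of the vomeronasal type 2 family, had 0.36, 0.34 and 0.37 TPM in the knockout libraries, and each wild-type library listed it at 0. It was called higher when no filter was applied. In all, 2 of the 22 genes, Vmn2r3 and Vmn2r96, had every knockout value above every wild-type value, and 1, Vmn2r29, had the opposite order, with wild-type values of 0.73, 0.83 and 0.38 TPM against knockout values of 0.35, 0.14 and 0.31 TPM. These orders held for 4.24% and 5.02% of genes under the filter. Vmn2r3, Vmn2r29 and Vmn2r96 were named after their values were seen.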
